A study of Mus musculus with 7 samples.

Results

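This is an account of 10 genes for enzymes, a chaperone and inhibitors that act on collagen and the extracellular matrix after the matrix genes themselves have been transcribed: Serpinh1, P4ha1, Lox, Loxl1, Loxl2, Mmp2, Mmp14, Timp1, Timp2 and Timp3. They were chosen by name for their roles, with earlier results of these data known, as 10 of the 31531 genes in the table. They were followed across 4 WT libraries and 3 libraries labelled dyW. All 10 passed the filter on low values, a mean normalized count of at least 5, as did 25791 genes of the table. Each library was an independent sample of muscle fibers at embryonic day 17.5 (E17.5). WT and dyW/dyW fetuses were obtained from crosses of heterozygous mice on the C57BL/6 background. The dyW allele disrupts Lama2, which encodes the laminin α2 chain, in every cell of the animal, and models LAMA2-congenital muscular dystrophy. The fibers were taken from epaxial muscle, the muscle of the back, with dispase and collagenase. They were collected on a strainer, washed and lysed directly. Full-length cDNA was made from polyadenylated RNA with the SMART-seq2 protocol and amplified without molecular identifiers. The question is whether the genes that fold, crosslink and degrade collagen differ in fetal muscle with a disrupted Lama2.

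Fibrillar collagen is made as procollagen in the endoplasmic reticulum, where prolyl 4-hydroxylase hydroxylates its prolines and the chaperone HSP47 binds the folded triple helix. After secretion and removal of the propeptides, lysyl oxidases oxidize lysines, and the resulting aldehydes form the covalent crosslinks that make collagen and elastin fibers stiff. Matrix metalloproteinases cut matrix proteins, and the tissue inhibitors of metalloproteinases (TIMPs) block them. In skeletal muscle these genes are mainly known from the fibroblasts of the connective tissue, and from tendon, cartilage and bone.

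A normalized count is a read number divided by the size factor of its library. Reads on genes numbered from 470804 to 2220813 in the WT libraries and from 3663905 to 18297106 in the libraries labelled dyW, and 1 read was worth between 2.05 and 5.33 normalized counts in WT and between 0.0974 and 0.488 in dyW. Lama2 was between 90.6 and 110.6 normalized counts in the 4 WT libraries, 4.29 in dyW1 and 6.07 in dyW2, but 139.7 in the remaining library. This library goes against its label in the targeted gene, is named the library labelled dyW3 throughout, and enters all directions given below. As a measure of reads that do not come from expressed genes, the median reads per kb of exon over 1330 odorant and vomeronasal receptor genes was taken in each library and multiplied by the exon length of a gene. Lama2 held between 0.914 and 1.61 times this receptor level in the WT libraries and 11.6 times in the library labelled dyW3, so its WT reads were near this background. The receptor median was 0 in dyW1 and dyW2. After subtraction of the receptor level the log2 fold change of Lama2 was 1.16 (adjusted P-value by limma of 0.728), so its WT level is a weak check of the labels. Libraries WT1 and dyW1 stood apart in their cell type markers. The sum of 10 cartilage and bone markers was 433717 normalized counts in WT1, almost all of it Col2a1, and 10131 in dyW1, where Ibsp, a bone gene, made up most of it. In the other 5 libraries this sum ranged from 19.7 to 8080, with the highest value in WT3. The sum of 12 myofiber markers was 65.8 in dyW1, where 6 of them (Ckm, Myh3, Myh8, Tnnc2, Actn2 and Atp2a1) were at 0, against 2676 in WT1 and 4768 to 70103 in the other 5 libraries. The 5 erythroid markers summed to 5.33 in WT1 and 14.8 in dyW1, and to at least 28727 elsewhere. The 10 fibroblast markers summed to between 4313 and 13260 in WT and between 21975 and 31338 in the libraries labelled dyW, without overlap between groups. In dyW1 this sum was mostly Col1a1 and Col1a2, which bone also expresses and which together had 20513 normalized counts there. Without these genes the remaining 8 fibroblast markers summed to 1462 in dyW1, below the 3236 to 9793 of the WT libraries, and to 23380 in dyW2 and 15492 in the library labelled dyW3, above them. In such bulk samples, fewer cells of a type and less RNA per cell cannot be told apart. The part of these other cells in the results on single genes was not tested.

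Groups were compared by limma on log2(normalized count + 1), P-values were adjusted after Benjamini and Hochberg for all 25791 genes, and a gene was called at an adjusted P-value under 0.05. Fold changes are given on this log2 scale as dyW minus WT, which understates the change of genes with low counts. Single genes were also compared on their normalized counts by an exact two-sided permutation test, which has 35 arrangements of the libraries and whose smallest possible P-value is 0.0571. Over all tested genes, the log2 fold change had a median of −1.99 as deposited, −1.24 after setting each library to a common total, and 0.06 after quantile normalization. The fold changes of the 10 genes are therefore set in relation to this median as well.

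Of the 10 genes, 1 was called higher in the libraries labelled dyW, which is Lox, and 0 were called lower by limma (1 at an unadjusted P-value under 0.05, Loxl1). Among all tested genes, 1.01% were called higher and 29.6% lower, or 4.85% and 20.7% under a common library total, where Lox was again the 1 gene of the 10 called. These shares depended on the setting. Quantile normalization called 0.0659% of genes higher and 0.318% lower, subtraction of the receptor level 0.419% and 0.182%, and a minimum mean of 50 called 0.00% and 0.0491%, each with 0 of the 10 genes past the threshold. At an adjusted P-value under 0.01 with a log2 fold change beyond 1.5, 0 of the 10 genes were called, against 0.0659% of tested genes higher and 18.7% lower. The 10 genes had a median log2 fold change of −0.09, with 5 values above 0 and 5 below, and this median was 1.90 above that of all tested genes. Each of the 10 values lay above the median of the table under the deposited scaling, Lox by 5.30, Timp3 by 2.96, Loxl2 by 2.77, Timp2 by 2.47, P4ha1 by 2.08, Mmp14 by 1.72, Serpinh1 by 0.85, Mmp2 by 0.64, Timp1 by 0.62 and Loxl1 by 0.17. After quantile normalization the median of the 10 genes was 0.17 below that of all tested genes, so their place in relation to the table depended on the scaling. Between groups, 2 of the 10 genes did not overlap: Lox, where all libraries labelled dyW were above all WT libraries, as for 3.28% of tested genes, and Loxl1, where they were below, as for 31.5%. WT1 held the highest value of 4 genes (Serpinh1, P4ha1, Loxl1 and Mmp2) and dyW1 that of 5 (Lox, Mmp14, Timp1, Timp2 and Timp3). The remaining gene, Loxl2, was highest in dyW2. The pair of libraries whose markers stood apart thus held 9 of the 10 highest values. The share of all tested genes with their highest value in this pair was not taken, so the count is not read as particular to these genes.

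**Figure D1:**
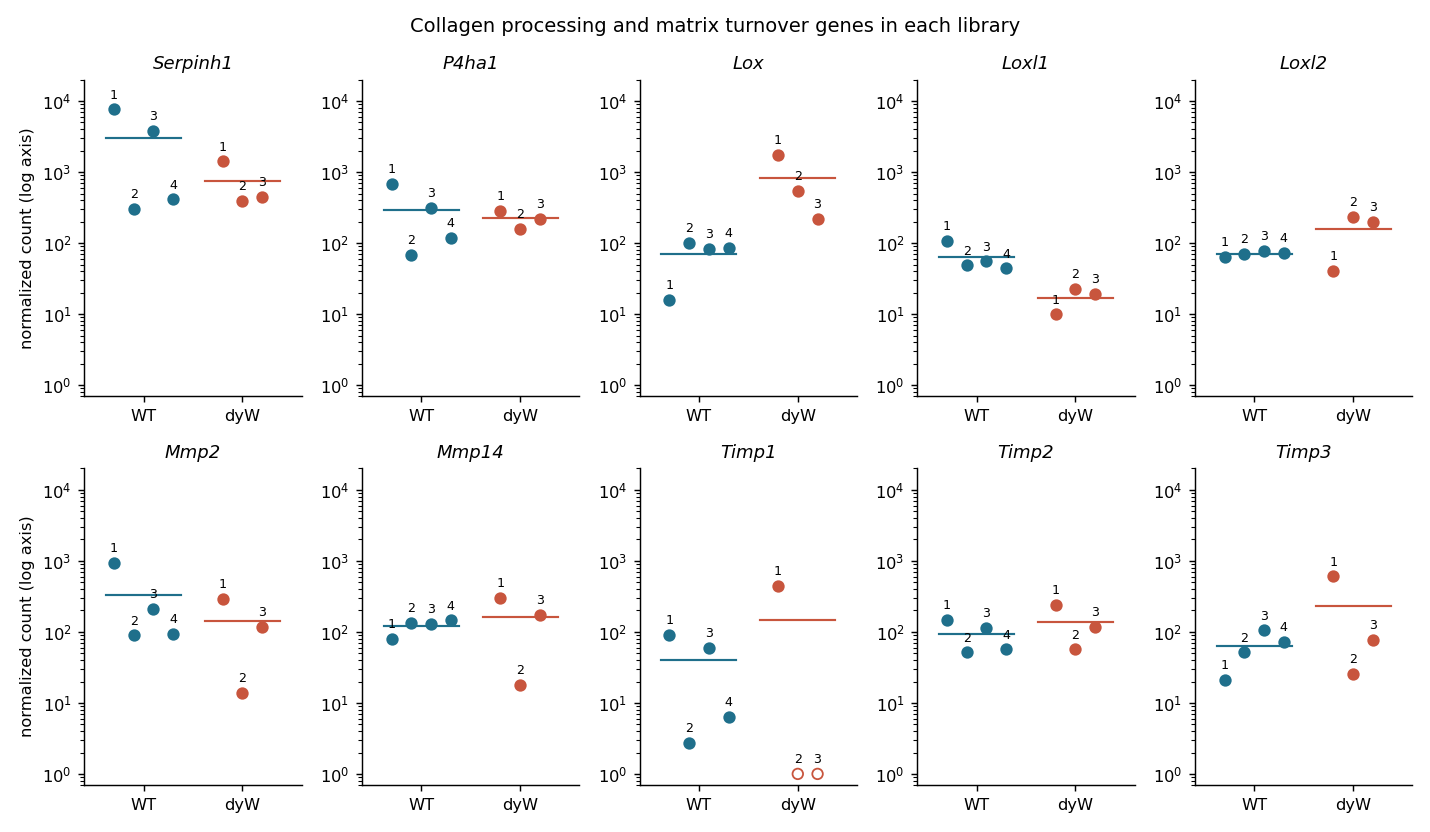
Normalized counts (log axis) of the 10 genes in each of the 4 WT libraries and 3 libraries labelled dyW, numbered by replicate, with the group mean as a line; open circles at the foot of the axis mark a count of 0. Lox and Loxl1 are the genes whose groups do not overlap, and in the Timp1 panel dyW1 is at 440.6 normalized counts while dyW2 and the library labelled dyW3 are at 0.

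Serpinh1 and P4ha1 act inside the cell. Serpinh1 encodes HSP47, the heat shock inducible chaperone of procollagen, and lies on chromosome 7 (GRCm39, 98994220 to 99005076, minus strand) with no overlapping gene. P4ha1 encodes a catalytic α subunit of prolyl 4-hydroxylase and lies on chromosome 10 (59159092 to 59209126, plus strand), also without an overlapping gene. The promoters of both, and that of Timp1, are shown because Serpinh1 and P4ha1 had their highest and second highest WT values in the same libraries, whereas Timp1 was read in dyW1 but not in the rest of its group. The sequences are the 250 bases before the transcription start in the RefSeq promoter table, which uses GRCm38.p6 and holds 6 of the 10 genes. They lie at chr7:99353240-99353489 on the minus strand (Serpinh1), chr10:59323046-59323295 on the plus strand (P4ha1) and chrX:20869916-20870165 on the plus strand (Timp1). Each is written 5′ to 3′ on the strand of the gene, and capitals mark matches to the motifs searched.
Serpinh1: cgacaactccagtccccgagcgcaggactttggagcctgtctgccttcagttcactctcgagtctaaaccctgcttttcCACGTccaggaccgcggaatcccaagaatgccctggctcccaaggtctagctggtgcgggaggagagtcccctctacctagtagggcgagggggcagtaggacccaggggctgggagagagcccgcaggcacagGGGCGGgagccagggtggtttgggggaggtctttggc
P4ha1: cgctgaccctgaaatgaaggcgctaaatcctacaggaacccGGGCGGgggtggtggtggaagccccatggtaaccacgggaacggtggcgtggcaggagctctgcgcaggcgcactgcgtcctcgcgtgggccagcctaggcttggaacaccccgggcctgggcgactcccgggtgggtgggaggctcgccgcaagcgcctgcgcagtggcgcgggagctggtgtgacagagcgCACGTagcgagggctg
Timp1: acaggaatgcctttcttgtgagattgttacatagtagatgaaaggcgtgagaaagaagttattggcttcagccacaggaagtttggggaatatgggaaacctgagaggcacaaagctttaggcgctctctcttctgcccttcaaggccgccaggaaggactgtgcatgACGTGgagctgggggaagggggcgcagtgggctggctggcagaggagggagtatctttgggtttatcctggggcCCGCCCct
The motifs were searched on both strands. Each of the 3 promoters holds 1 GC box (GGGCGG), which 32.7% of the 32851 promoters in the table hold in the same window, and 1 hypoxia response core (ACGTG), which 16.6% hold. In Serpinh1 the GC box begins 37 bases before the start and the core 171 bases before it. In P4ha1 these distances are 209 and 16 bases, and in Timp1 8 and 82 bases. None of the 3 windows holds the heat shock element searched (GAANNTTC or TTCNNGAA, 12.8% of promoters), the AP-1 site (TGANTCA, 6.75%) or the RUNX core (TGTGGT, 14.0%). No motif overlapped another in these windows. The matches describe the letters only.

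Serpinh1 had 7645 (WT1), 302.0 (WT2), 3822 (WT3) and 412.2 (WT4) normalized counts, against 1419 in dyW1, 393.5 in dyW2 and 444.4 in the library labelled dyW3. WT1 and WT3 were high, and the groups overlapped, since WT2 and WT4 lay close to dyW2 and the library labelled dyW3. The mean was 3045 ± 3475 normalized counts (SD, n = 4) for WT and 752.1 ± 577.7 (SD, n = 3) for the libraries labelled dyW. The log2 fold change of −1.14 (SE 1.15) was no larger than its error and was not called (adjusted P-value by limma of 0.476, exact permutation P-value of 0.514). It was −0.31 without WT1, −0.65 without WT3 and −1.87 without WT2. WT1 and WT3, the WT libraries high in Serpinh1, were those with the higher cartilage and bone marker sums in WT, and WT3 also had the highest myofiber sum. The part of these cells in the Serpinh1 level was not tested.

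P4ha1 showed the same order of WT libraries at lower levels. Its normalized counts were 677.1 (WT1), 67.4 (WT2), 313.8 (WT3) and 119.6 (WT4), and 287.5, 160.7 and 219.8 in dyW1, dyW2 and the library labelled dyW3. The values of the second group all lay within the range of WT. They spanned 1.79-fold, compared with 10.04-fold in WT. The means were 294.5 ± 276.2 (SD, n = 4) and 222.7 ± 63.4 (SD, n = 3) normalized counts, and the log2 fold change was 0.09 (SE 0.81, adjusted P-value by limma of 0.944, exact permutation P-value of 0.857). The sign of this difference was negative for the means and positive on the log2 scale, so no direction can be given.

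Among the lysyl oxidases, Lox was called higher, while Loxl1 and Loxl2 were not called. Lox encodes the founding lysyl oxidase, which crosslinks collagen and elastin, Loxl1 a relative known for elastic fiber renewal, and Loxl2 a relative that acts on collagen IV of basement membranes among other substrates. Loxl1 lies on chromosome 9 (GRCm39, 58195014 to 58220495, minus strand), and Loxl2 on chromosome 14 (69846209 to 69933283, plus strand). The strand setting of the read counting is not given in the sources used here, so reads of antisense partners cannot be told apart from those of the gene. Exons of Loxl2 share 943 bases with R3hcc1, those of Loxl1 share 160 bases with Gm57034, and those of Lox share 30 bases with Gm41724, all on the opposite strand.

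Lox had 15.99 (WT1), 99.8 (WT2), 82.1 (WT3) and 85.0 (WT4) normalized counts, from 3, 37, 40 and 27 reads. It had 1735 normalized counts in dyW1, 539.2 in dyW2 and 216.8 in the library labelled dyW3, from 17805, 4263 and 444 reads. The lowest value of the second group was thus above the highest WT value, although dyW1 stood far above the others of its group. The mean rose from 70.7 ± 37.3 (SD, n = 4) to 830.3 ± 799.8 (SD, n = 3) normalized counts, an 11.7-fold difference whose exact permutation P-value was 0.0571, the smallest the design allows. The log2 fold change was 3.32 (SE 0.90, adjusted P-value by limma of 0.0207), which is 5.30 above the median of all tested genes. This distance was 3.18 after quantile normalization and 3.12 with a minimum mean of 50. Without dyW1 the fold of the means was 5.35 and the call was lost (adjusted P-value of 0.0635), and without both WT1 and dyW1 the fold was 4.25 (adjusted P-value of 0.0577). The fold without the library labelled dyW3 was 16.1 (adjusted P-value of 0.00880). The groups did not overlap in any of these subsets. Over 18 alternative settings the log2 fold change stayed positive, from 1.94 to 4.71, and the call was kept in 10, with adjusted P-values from 0.00880 to 0.225. Fibroblast marker sums, with and without type I collagen, were higher than WT in dyW2 and the library labelled dyW3. In dyW1, highest in Lox, type I collagen was above WT, but the sum of the remaining fibroblast markers was below it. This library also held the bone gene Ibsp. The part of these cells in the Lox level was not tested.

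Loxl1 was lower in every library labelled dyW than in any WT library. Its normalized counts were 106.6 (WT1), 48.5 (WT2), 55.4 (WT3) and 44.1 (WT4), and 9.94 in dyW1, 22.4 in dyW2 and 19.0 in the library labelled dyW3. The WT values rested on 14 to 27 reads per library and the others on 39 to 177 reads. The mean was 63.7 ± 29.0 (SD, n = 4) for WT and 17.1 ± 6.44 (SD, n = 3) for the libraries labelled dyW, 3.72-fold lower (exact permutation P-value of 0.0571). The log2 fold change of −1.81 (SE 0.65) missed the threshold (adjusted P-value by limma of 0.0635) and lay 0.17 above the median of all tested genes. It was called in 1 of 17 alternatives, without the library labelled dyW3 (adjusted P-value of 0.0491). In that setting 40.3% of all tested genes were called lower. Under a common total the difference of means had an exact permutation P-value of 0.286, and the log2 fold change was −0.72 (adjusted P-value by limma of 0.555). The log2 fold change of Loxl1 was −0.56 by voom on library totals and −1.18 after subtraction of the receptor level (adjusted P-value by limma of 0.419). In relation to the median of all tested genes it was 1.31 lower after quantile normalization and 1.47 lower after subtraction, so its place in the table depended on the setting. Loxl1 held between 1.81 and 7.90 times the receptor level in the WT libraries and 7.12 times in the library labelled dyW3. Its WT reads were thus close to this background in WT2 and WT4.

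Background reads bear on Lox as well. Its WT reads were between 0.951 and 4.56 times the receptor level, lowest in WT1, and 65.1 times in the library labelled dyW3. After subtraction of the receptor level, a step added after the data had been seen, the log2 fold change of Lox was 4.71 with a adjusted P-value by limma of 0.225.

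Loxl2 was even across WT, with 64.0, 70.1, 77.9 and 72.4 normalized counts in WT1 to WT4. It was 40.2 in dyW1, 231.7 in dyW2 and 197.3 in the library labelled dyW3. So dyW1 lay below all WT libraries and the others of its group above them, and the groups overlapped. The WT reads were between 1.87 and 3.87 times the receptor level, against 52.8 times in the library labelled dyW3. The means were 71.1 ± 5.78 (SD, n = 4) and 156.4 ± 102.1 (SD, n = 3) normalized counts, and the log2 fold change was 0.78 (SE 0.71, adjusted P-value by limma of 0.427, exact permutation P-value of 0.286). Without dyW1, in which 6 of 12 myofiber markers were at 0, the groups did not overlap and the fold of the means was 3.02, but the adjusted P-value by limma of 0.0619 still missed the threshold. After subtraction of the receptor level the log2 fold change was 1.49 (adjusted P-value by limma of 0.302). The 3 lysyl oxidases therefore had 3 different orders of libraries, with dyW1 highest for Lox and lowest for Loxl1 and Loxl2.

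The ratio of Lox to Loxl1 within a library, which does not depend on its size factor, was looked at after these values had been seen and is given without a test. It was 0.150 in WT1 and between 1.48 and 2.06 in the other WT libraries. In the second group it was 174.6 in dyW1, 24.1 in dyW2 and 11.4 in the library labelled dyW3.

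**Figure D2:**
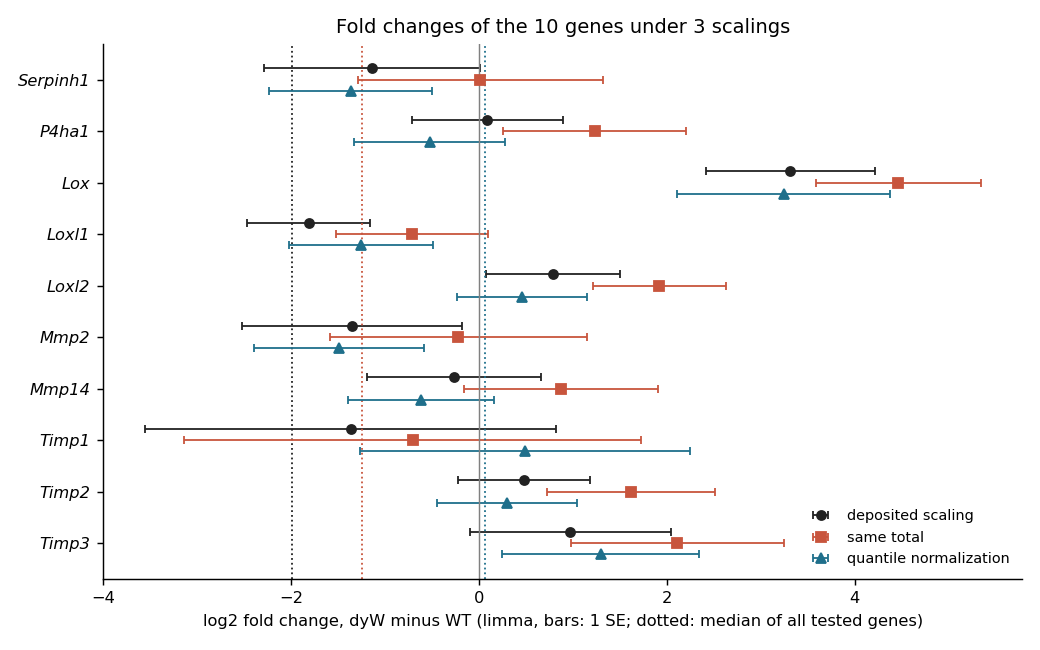
Log2 fold changes (dyW minus WT, limma, bars of 1 SE) of the 10 genes under the deposited scaling, a common library total and quantile normalization; dotted lines mark the median of all tested genes under each. Lox lies above 3 under all 3 scalings, whereas the bar of each of the other 9 genes crosses 0 under at least 1 of them.

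Mmp2 and Mmp14 encode a secreted gelatinase and the membrane-bound collagenase MT1-MMP, which activates pro-MMP2 at the cell surface. Mmp2 lies on chromosome 8 (GRCm39, 93553902 to 93580049, plus strand), where its exons share 860 bases with the antisense Gm45472. Mmp14 lies on chromosome 14 (54668878 to 54682821, plus strand) and shares 219 exon bases with the antisense Gm62879.

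Mmp2 had 938.3 (WT1), 89.0 (WT2), 211.3 (WT3) and 94.4 (WT4) normalized counts, and 288.2 in dyW1, 13.7 in dyW2 and 118.2 in the library labelled dyW3. WT1 was high and dyW2 low, and the groups overlapped. The means were 333.2 ± 407.3 (SD, n = 4) and 140.0 ± 138.6 (SD, n = 3) normalized counts, with a log2 fold change of −1.35 (SE 1.17, adjusted P-value by limma of 0.404, exact permutation P-value of 0.686). Without WT1, the library with the highest cartilage marker sum, the difference of the means changed sign to 8.47 normalized counts higher in the libraries labelled dyW.

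Mmp14 stayed between 80.0 and 144.7 normalized counts in WT, with 80.0 (WT1), 134.8 (WT2), 129.2 (WT3) and 144.7 (WT4). The other libraries ranged more widely, with 303.5 in dyW1, 18.0 in dyW2 and 171.4 in the library labelled dyW3. Thus dyW2 was below and the others of its group above every WT library. The means were 122.2 ± 28.9 (SD, n = 4) and 164.3 ± 142.9 (SD, n = 3) normalized counts, and the log2 fold change was −0.27 (SE 0.93, adjusted P-value by limma of 0.847, exact permutation P-value of 0.629). As in P4ha1, the means and the log2 values differed in sign. Both proteases were lowest in dyW2, the most deeply sequenced library, in which Mmp2 had 108 reads and Mmp14 142 reads of 18297106.

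The 3 inhibitors block metalloproteinases with different preferences. TIMP1 inhibits most soluble metalloproteinases but MT1-MMP poorly, TIMP2 both inhibits MMP2 and takes part in its activation by MT1-MMP, and TIMP3 is bound to the matrix. Timp1 lies on chromosome X (GRCm39, 20736316 to 20740976, plus strand), within the span of Syn1 but with no shared exon base. Timp2 lies on chromosome 11 (118191887 to 118246566, minus strand), and 332 of its exon bases are shared with Cep295nl on the same strand. Timp3 lies on chromosome 10 (86136236 to 86185371, plus strand), where 1734 exon bases are shared with the antisense Syn3.

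Timp1 was nearly a single-library signal in the second group. It had 440.6 normalized counts, from 4522 reads, in dyW1, but no read in dyW2 or the library labelled dyW3, where a count of 0 allows up to 3 reads, or 0.379 and 1.47 normalized counts. This limit covers counting error only, because amplified reads without molecular identifiers are not independent molecules. In WT it was 90.6 (WT1), 2.70 (WT2), 59.5 (WT3) and 6.29 (WT4), from 17, 1, 29 and 2 reads. Reads were thus present in all WT libraries but few in WT2 and WT4, and these were the WT libraries low in Serpinh1, P4ha1 and Mmp2 as well. In WT2 and WT4 the reads of Timp1 were 0.203 and 0.544 times the receptor level. The means were 39.8 ± 42.7 (SD, n = 4) and 146.9 ± 254.4 (SD, n = 3) normalized counts, whereas the log2 fold change was −1.37 (SE 2.19, adjusted P-value by limma of 0.662, exact permutation P-value of 0.857). Without dyW1, the log2 fold change was −4.30 and the gene was called lower (adjusted P-value by limma of 0.0499), which rests on 2 libraries with no read. In that setting 31.1% of all tested genes were called lower. Timp1 is X-linked, and the libraries differed in sex-linked RNA: Xist ranged from 15.99 to 297.4 normalized counts in WT and from 460.7 to 4132 in the libraries labelled dyW. The Y-linked Ddx3y, looked at after the values had been seen, had 36 reads in WT1, 12 in WT4, 1 in the library labelled dyW3 and 0 in the others. The part of sex in the Timp1 level was not tested.

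Timp2 had 149.3 (WT1), 51.2 (WT2), 112.8 (WT3) and 56.6 (WT4) normalized counts, and 238.1 in dyW1, 56.7 in dyW2 and 118.7 in the library labelled dyW3. Only dyW1 lay above the WT range, and the groups overlapped. The log2 fold change was 0.48 (SE 0.70, adjusted P-value by limma of 0.630, exact permutation P-value of 0.400), on means of 92.5 ± 47.0 (SD, n = 4) and 137.8 ± 92.2 (SD, n = 3) normalized counts. Without dyW1 the log2 fold change was −0.03, so the higher mean rested on that library.

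Timp3 had 21.3, 51.2, 104.6 and 72.4 normalized counts in WT1 to WT4, and 603.0 in dyW1, 25.7 in dyW2 and 76.2 in the library labelled dyW3. Again dyW1 alone stood above the WT range, and the WT reads were between 0.767 and 3.52 times the receptor level. The means were 62.4 ± 35.1 (SD, n = 4) and 234.9 ± 319.7 (SD, n = 3) normalized counts, and the log2 fold change was 0.97 (SE 1.07, adjusted P-value by limma of 0.514, exact permutation P-value of 0.514). Without dyW1 it was −0.27, and after subtraction of the receptor level 3.99 (adjusted P-value by limma of 0.311). All 3 inhibitors were thus highest in dyW1, the library with 8191 normalized counts of Ibsp and no read of the myofiber gene Ckm, and the part of this in their levels was not tested.

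**Figure D3:**
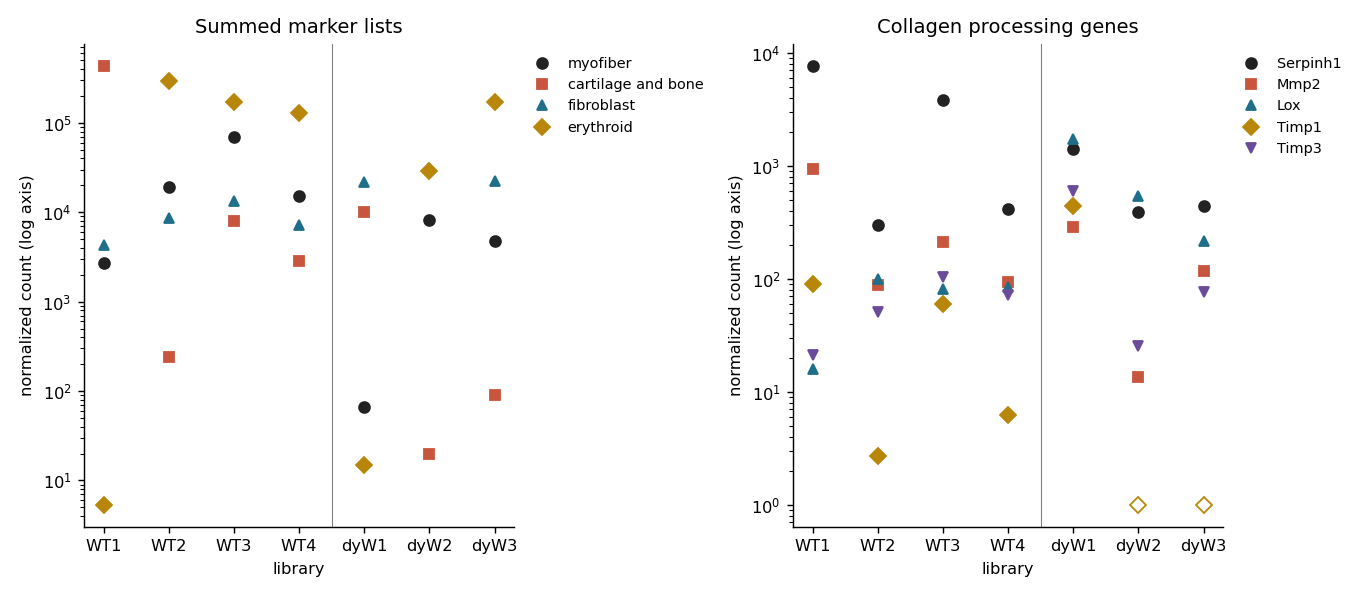
Summed normalized counts (log axis) of 4 marker lists in each library on the left, and of Serpinh1, Mmp2, Lox, Timp1 and Timp3 in the same libraries on the right, with WT libraries and libraries labelled dyW parted by a line; open symbols mark a count of 0. WT1 has the highest cartilage and bone sum and the highest Serpinh1 and Mmp2, and dyW1 has the lowest myofiber sum and the highest Lox, Timp1 and Timp3.

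Levels of different genes were compared per kb of exon. In WT the order was Serpinh1 at 434.1 ± 495.3 normalized counts per kb (SD, n = 4), Mmp2 at 94.3 ± 115.3 and P4ha1 at 45.4 ± 42.6, followed by Timp2, Timp1, Mmp14, Loxl1, Lox and Loxl2 between 20.7 and 12.9, and Timp3 at 7.66 ± 4.31. In the libraries labelled dyW, Lox led with 168.4 ± 162.2 (SD, n = 3), ahead of Serpinh1 at 107.2 ± 82.4, Timp1 at 75.1 ± 129.99 and Mmp2 at 39.6 ± 39.2. P4ha1, Timp2, Timp3, Loxl2 and Mmp14 followed between 34.4 and 26.6, with Loxl1 last at 4.33 ± 1.63. The Timp1 mean of this group came from dyW1 alone, at 225.2 per kb against 0 in dyW2 and the library labelled dyW3. Of the 9 steps between neighbours in each order, 8 in WT and 9 in the libraries labelled dyW were no larger than the larger SD of the pair. The exception was the step from Loxl2 to Timp3 in WT. In these orders of means, Lox moved from the eighth place to the first and Loxl1 from the seventh to the last. Single libraries differed. In WT2, Lox at 20.2 per kb was above P4ha1 at 10.4, and in the library labelled dyW3 it was below Serpinh1, at 43.98 against 63.3. Loxl1 was last only in dyW1. It was above Mmp2 in dyW2, at 5.66 against 3.87, and above Timp1 in the library labelled dyW3, at 4.81 against 0.

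Pairs of partners were then compared within each library, where the ratio of normalized counts does not depend on the size factor. The 5 ratios set a protease against its inhibitor, an enzyme subunit against its partner, and a chaperone and a crosslinker against type I collagen. They were compared on log2 values, after adding 1 to each normalized count, by the exact two-sided permutation test, with Benjamini-Hochberg adjustment over the 5.

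The ratio of Mmp2 to Timp2 was the only one of the 5 whose groups did not overlap. It was 6.29 (WT1), 1.74 (WT2), 1.87 (WT3) and 1.67 (WT4), and 1.21 in dyW1, 0.241 in dyW2 and 0.996 in the library labelled dyW3. Every WT library thus had more Mmp2 than Timp2 in proportion than any library labelled dyW, with a log2 difference of −1.83 (exact permutation P-value of 0.0571, adjusted 0.190). The difference was −1.37 without WT1, −1.13 without dyW2 and −1.79 without WT1 and dyW1. The ratio of Mmp14 to Timp2 overlapped, from 0.536 to 2.63 in WT and from 0.317 to 1.44 in the other group, with a log2 difference of −0.75 (exact permutation P-value of 0.457). Without dyW2 this difference was −0.067, and without WT1 −1.21.

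The ratio of Serpinh1 to Col1a1, the gene of the collagen α1(I) chain that HSP47 binds, differed most in its spread. It was 22.4 (WT1), 0.128 (WT2), 4.31 (WT3) and 0.229 (WT4), but 0.168 in dyW1, 0.198 in dyW2 and 0.176 in the library labelled dyW3. On the log2 scale its SD was 3.52 in WT (n = 4) and 0.13 in the libraries labelled dyW (n = 3). WT2 and WT4 lay close to the libraries labelled dyW, and WT1 and WT3 far above them, so the log2 difference of −2.85 was smaller than the spread in WT (exact permutation P-value of 0.400, adjusted 0.457). It was −1.48 without WT1, −3.68 without WT4, and −3.96 without WT2 (exact permutation P-value of 0.1, the smallest possible with 3 libraries against 3). The ratio of P4ha1 to P4hb, which encodes the β subunit of prolyl 4-hydroxylase, was 0.0291 to 0.179 in WT and 0.178 to 0.248 in the libraries labelled dyW. Its log2 difference was 1.14 (exact permutation P-value of 0.114, adjusted 0.190), and 0.58 without WT3.

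The ratio of Lox to Col1a1 sets the crosslinker against its main substrate. It was 0.0469 (WT1), 0.0422 (WT2), 0.0926 (WT3) and 0.0472 (WT4), and 0.205 in dyW1, 0.271 in dyW2 and 0.0857 in the library labelled dyW3. WT3 and the library labelled dyW3 overlapped. The log2 difference was 1.604, compared with SDs of 0.51 (n = 4) and 0.86 (n = 3), and had an exact permutation P-value of 0.114 (adjusted 0.190). The smallest possible P-value in this design is 0.0571, and the value found lay above it with overlapping groups. A difference of Lox relative to Col1a1 was therefore not shown.

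**Figure D4:**
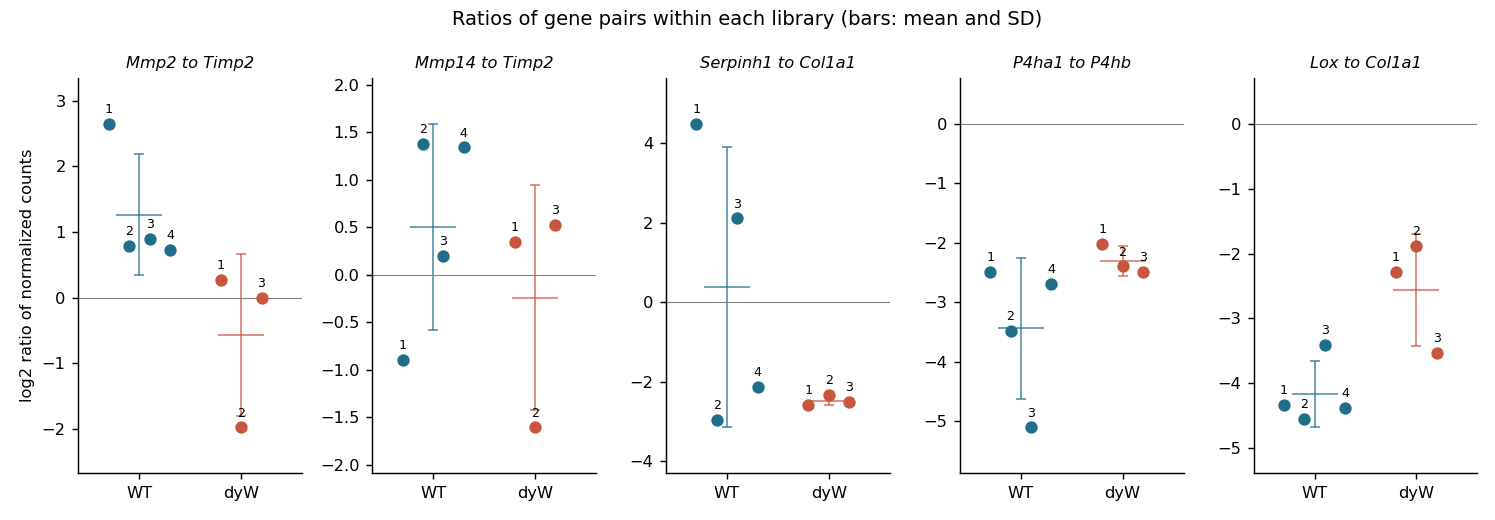
Log2 ratios of normalized counts for 5 gene pairs in each library, numbered by replicate, with group means and SD bars, and a separate axis for each pair. In the Mmp2 to Timp2 panel all WT libraries lie above all libraries labelled dyW, and in the Serpinh1 to Col1a1 panel the 3 libraries labelled dyW lie close together while the WT libraries spread widely.

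The other genes of collagen processing and matrix turnover were read from a list of 51, all of which passed the filter. Of these, 1 was called higher and 3 lower in the libraries labelled dyW, and 47 were not called, against 1.01% higher and 29.6% lower among all tested genes. The median log2 fold change of the list was −1.04, which is 0.95 above that of all tested genes, and it was the same with Mmp24, which had no read in the libraries labelled dyW, set to the bound of its fold. It was −0.065 after quantile normalization, 0.096 under a common total, 0.45 by voom on library totals and 0.51 after subtraction of the receptor level, so its sign depended on the setting. Procollagen folding and modification (18 genes, among them the lysyl hydroxylases, prolyl 3-hydroxylases and Fkbp10) had 0 calls in either direction and a median of −0.48. Propeptide cleavage (8 genes) had 1 lower call, crosslinking (Loxl3, Loxl4 and Tgm2) 0, and the 2 remaining inhibitors, Timp4 and Reck, 0. The 20 proteases, activators and uptake receptors had 1 higher and 2 lower calls.

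The gene called higher was Fap, a membrane serine protease of activated fibroblasts. Its normalized counts were 32.0 (WT1), 83.6 (WT2), 170.3 (WT3) and 78.7 (WT4), and 350.1 in dyW1, 652.0 in dyW2 and 552.8 in the library labelled dyW3. The groups did not overlap, and dyW1 was here the lowest of its group. The log2 fold change was 2.68 (SE 0.65, adjusted P-value by limma of 0.0132), the fold of the means was 5.69, and it was 5.43 without WT1 and dyW1. The call was lost with a mean of at least 50 (adjusted P-value of 0.101), quantile normalization (0.203), a block for replicate number (0.0614), voom with the deposited size factors (0.0670) and subtraction of the receptor level (0.109). In WT the reads of Fap were between 1.596 and 7.94 times the receptor level. The sum of the fibroblast markers other than type I collagen was above WT in dyW2 and the library labelled dyW3 but below it in dyW1. Not every marker followed the sum, as Pdgfra was at least 280.4 in the libraries labelled dyW and at most 122.6 in WT. The part of these markers' cells in the Fap level was not tested.

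The genes called lower rested on few reads. Mmp24 and Mmp3 reached the minimum mean of 5 only through WT, the group where they were high and where 1 read was worth more, so their calls are given as values and not as support for a difference. Mmp24, a membrane-type metalloproteinase, had between 1 and 7 reads in each WT library and none in the libraries labelled dyW. In WT it held between 0.230 and 0.579 times the receptor level, and after subtraction of this level its log2 fold change was 0.00 (adjusted P-value by limma of 1, against 0.00469 as deposited). Its call was also lost after quantile normalization (0.844) and with a block for replicate number (0.0614). Mmp3, stromelysin 1, had 3 to 5 reads in each WT library and 21, 1 and 3 in dyW1, dyW2 and the library labelled dyW3, with a log2 fold change of −2.71 (adjusted P-value by limma of 0.0214). This turned to 0.88 after quantile normalization (adjusted P-value of 0.623) and was −1.31 after subtraction of the receptor level (0.532). The call was also lost under a common total (0.178), both uses of voom (0.115 and 0.232), the block (0.141) and a pseudocount of 10 (0.0619). It was lost without WT4 (0.0629) and without dyW2 (0.0827) as well, and was kept in 8 of 17 alternatives. Adamts3, a procollagen N-propeptidase, had 5 to 36 reads in WT, 189 in dyW1 and 0 in the other libraries of that group, with overlapping normalized counts and a log2 fold change of −4.40 (adjusted P-value by limma of 0.0267). Its call was lost after quantile normalization (0.338), subtraction of the receptor level (0.698), a common total (0.103) and the block (0.0614). Leaving out WT1 (0.0816), WT3 (0.0758), WT4 (0.0791), dyW2 (0.0793) or the library labelled dyW3 (0.0537) also lost it. The Adamts3 call was kept in 8 of 17 alternatives. Without WT4, Mmp24 was the only lower call of the list, when 23.9% of all tested genes were called lower, and without dyW1 there were 9, or 17.6% of the list, against 31.1% of all tested genes.

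Plod3, a lysyl hydroxylase and glycosyltransferase of collagen, did not overlap between groups but was not called (log2 fold change of −2.12, adjusted P-value by limma of 0.0650). The most uneven gene of the list was Mmp13, the interstitial collagenase of hypertrophic cartilage and bone, which was chosen after its values had been seen. It had 17612 normalized counts in dyW1, from 180747 reads, and between 0 and 170.3 in the other 6 libraries, with the highest of these in WT3. In dyW1 it thus stood together with Timp1, Timp3 and Lox, and its log2 fold change of 2.15 was not called (adjusted P-value by limma of 0.615).

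**Figure D5:**
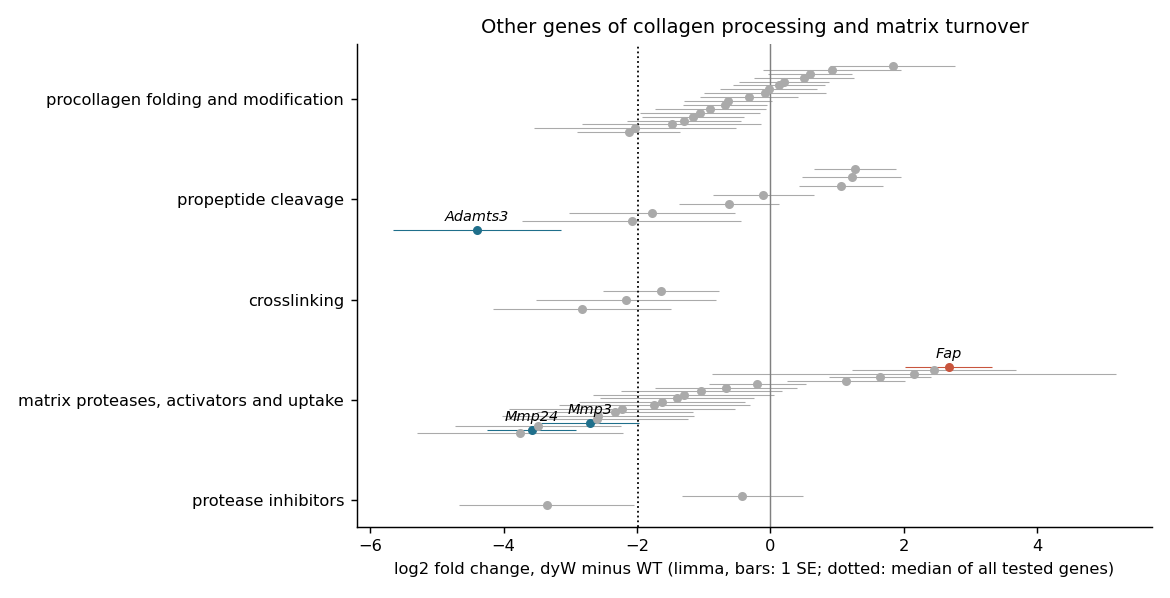
Log2 fold changes (dyW minus WT, limma, bars of 1 SE) of the 51 other genes, grouped by role, with called genes named and the median of all tested genes as a dotted line. Fap is the 1 gene called higher, and Mmp3, Mmp24 and Adamts3 are the 3 called lower, of which Mmp3 and Mmp24 passed the filter only through WT.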

How the data were processed

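RNA of muscle fibers was measured in 7 libraries, each an independent sample, and grouped by the genotype in the labels. The authors used Cutadapt for trimming, STAR for alignment to GRCm39 and FeatureCounts for counting on genes, and deposited counts divided by 1 DESeq2 size factor per library. Tool versions, annotation release and strand setting are not given in the sources used here. A deposited table of the authors' fold changes and P-values was not used.

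Whole reads were recovered from the value of 1 read (100% of values whole within 0.1 reads). GENCODE M39 gave GRCm39 coordinates and exon lengths (99.2% of genes), and the study's labels gave no batch. Log2(normalized count + 1) of genes with a mean of at least 5 was fitted by lmFit and eBayes (trend) of limma 3.58.1, under R 4.3.3. Tested on simulated data for 25791 genes, 184 of 200 genes changed 16-fold were called, with 0 false calls. The simulation gave all genes the same dispersion and took the changed genes from those with a mean of at least 50. It held no background reads, no mixture of cells and no shift of the whole table, so its 0 false calls do not carry over to the real libraries. Python 3.11.15 with pandas 2.3.3, numpy 2.4.6 and scipy 1.17.1 gave the other values, and matplotlib 3.10.9 the plots.

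The 10 genes, the list of 51 and the marker lists were chosen with earlier results of these data known. The 10 genes, called genes of the list, ratio partners, Lama2, Xist and marker sums were named by rule, other genes after their values were seen. Krt5, Krt14 and Krt15 of the epidermis markers were not found in the table. The other lists (tendon, endothelium and pericyte, leukocyte, epidermis, Schwann cell) are given with the closing observations. Alternatives comprised no filter, a minimum mean of 50, other pseudocounts (0.1 and 10), the same total, quantile normalization, a replicate block, stricter thresholds, and each library left out. Voom on reads, subtraction of the receptor level, and leaving out WT1 and dyW1 were added after seeing the data.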

Additional observations from a re-analysis of the deposited data

Results flagged for a closer look

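Mmp2 in WT was flagged because WT1, at 938.3 normalized counts, lay far from the other WT libraries, which were between 89.0 and 211.3. Its gap to the nearest of these took 0.856 of the range of the group, above Dixon's critical value for 4 samples. The log2 ratio of Mmp2 to Timp2 in WT was flagged for the same library, at 2.64 against 0.73 to 0.90 in the others, a gap of 0.910 of the range. Both flags share the Mmp2 value of WT1, the library with 415687 normalized counts of Col2a1. The rule was applied to 15 sets of WT values, and chance flags about 1 in 20. The rule was not applied to the 3 libraries labelled dyW.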

How the results depend on the processing

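With a call at an adjusted P-value under 0.05, 1 of the 10 genes was higher and 0 lower. The number higher became 0 with a mean of at least 50, quantile normalization, the replicate block, voom with either scaling, subtraction of the receptor level, adjusted P-values under 0.01 with log2 fold changes over 1.5, and without both WT1 and dyW1, and it ranged from 0 to 1 when each library was left out. The number lower ranged from 0 to 1 with each library left out. Of the list of 51, the 1 higher gene became 0 with a mean of at least 50, quantile normalization, the replicate block, voom with the deposited size factors, subtraction of the receptor level and the stricter thresholds, 5 with the same total and 2 with voom on library totals, and it ranged from 1 to 2 with each library left out. The 3 lower genes became 0 with a mean of at least 50, quantile normalization, the block and subtraction, 1 with the same total and with the stricter thresholds, and 7 without both WT1 and dyW1, and ranged from 1 to 9 with each library left out. Over all tested genes, 0.00% were called higher and 0.00775% lower under the block, and 0.810% and 30.4% without both WT1 and dyW1. With each library left out, these shares ranged from 0.318% to 1.51% higher and from 23.9% to 40.3% lower. Voom called 0.112% higher and 30.9% lower with the deposited size factors, and 1.85% and 26.6% on library totals. The causes were not tested. Under the replicate block, in which WT4 has no partner, the log2 fold change of Lox was 3.496 (adjusted P-value by limma of 0.0638). The replicate numbers did not pair the samples: deviations of same-numbered libraries correlated at 0.147, −0.0494 and −0.0880.

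Most log2 fold changes near 0 changed sign under some setting. With the same total, Serpinh1 was 0.012 and Mmp14 0.87. With voom on library totals, Serpinh1 was 0.35, Mmp2 0.068 and Mmp14 0.65. After quantile normalization, P4ha1 was −0.53 and Timp1 0.49. P4ha1 was −0.17 under the block, Mmp14 0.13 after subtraction, and Timp1 0.037 with a pseudocount of 10. With libraries left out, P4ha1 ranged from −0.44 to 0.66, Mmp14 from −1.26 to 0.93, Timp1 from −4.30 to 0.096, Timp2 from −0.028 to 0.998 and Timp3 from −0.71 to 1.98. Differences of mean normalized counts (dyW minus WT) also changed sign. For P4ha1 the difference was 120.8 with the same total. With libraries left out, it ranged from −147.5 to 55.7 for P4ha1, from −274.6 to 8.47 for Mmp2, from −41.6 to 115.3 for Mmp14, from −39.8 to 180.5 for Timp1, from −4.83 to 85.9 for Timp2 and from −25.1 to 277.2 for Timp3. The sign of the differences for Mmp14, Timp1, Timp2 and Timp3 changed without dyW1, and that for P4ha1 and Mmp2 without WT1. Among the alternative log2 fold changes, 150 kept direction and side of the threshold, 2 gained a call, 8 lost it and 19 reversed. Of the differences, 79 kept their direction and 11 reversed, and 50 ratio values kept theirs.

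Loxl1 has no value with a mean of at least 50. The planned edgeR and DESeq2 fits were not run on this table of normalized values with decimal commas, although the recovered reads would have allowed count models, and voom on those reads took their place. With 4 and 3 libraries no exact P-value can fall below 0.0571, and WT1, with 470804 reads, gives a floor of 15.99 normalized counts, the level of Lox there.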

Other observations

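Marker lists of other cell types, read for the same libraries, were uneven as well. The 5 tendon markers summed to 2666 (WT1), 231.9 (WT2), 808.2 (WT3) and 223.4 (WT4) normalized counts, and to 95.5 in dyW1, 1385 in dyW2 and 332.6 in the library labelled dyW3. The 8 endothelium and pericyte markers lay between 869.0 and 2704 in WT and between 938.1 and 1867 in the libraries labelled dyW. The 6 leukocyte markers lay between 112.0 and 547.4 in WT and between 58.1 and 296.6 in the other group, lowest in dyW1. The 4 Schwann cell markers were 7.21 in dyW1 and 767.3 in dyW2, with WT between 101.3 and 261.2. The 2 epidermis markers in the table, Krt10 and Krt1, summed to at most 57.8 in any library.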
